A study of Mus musculus with 12 samples.

Results

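The genes described here are 10 regulators and feedback genes of the ATF4 and CHOP branch of the stress response: Atf4, Ddit3 (which encodes CHOP), Atf3, Cebpb, Cebpg, Nupr1, Trib3, Chac1, Ppp1r15a and Sesn2. They were chosen by name and matched to Ensembl mouse identifiers on GRCm38 among the 55487 gene identifiers of 2 count tables, and all 10 were present. Ddit3 has 2 identifiers, the gene itself and a separate entry for its annotated upstream open reading frame, so the 10 genes occupy 11 identifiers in each table. All 10 genes passed the filter on low counts in each assay.

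The cells were B16F10, a mouse melanoma line, carrying either a control hairpin (shCtr) or hairpin #2 against Osgep (shOSGEP), which the labels also give as wild type and OSGEP knockdown. OSGEP is the enzyme within KEOPS, the complex that places the t6A modification on tRNAs reading codons that begin with A (ANN codons). Each genotype had 3 replicates, and each of the 6 cell samples gave a library of ribosome-protected fragments (RPF) and a library of total RNA, 12 libraries in all. Both genotypes were grown in the same serum-containing medium, no stress agent is named for either, and cycloheximide was added shortly before lysis to hold ribosomes in place. The replicates were separate transductions by the study's methods, but only 1 hairpin against Osgep was profiled, so the effect of the hairpin and that of Osgep loss cannot be told apart.

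ATF4 is the main transcription factor of the integrated stress response. When a kinase phosphorylates the initiation factor eIF2, general initiation slows, while mRNAs with particular upstream open reading frames, Atf4 first among them, keep or gain ribosomes on their main coding sequence. ATF4 then pairs with other basic leucine zipper (bZIP) proteins, such as the C/EBP factors and CHOP, at composite C/EBP-ATF sites and switches on genes for amino acid supply, redox balance and, when stress persists, cell death. The branch also limits itself: the Ppp1r15a product, GADD34, brings a phosphatase to eIF2, and TRIB3 binds and restrains members of the pathway.

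The promoters are shown because both kinds of site through which these factors act can be read in them. A pair of motifs was searched on both strands of the RefSeq promoter window of each gene, 300 bases that end shortly after the transcription start (GRCm38.p6): the C/EBP-ATF response element TGATGNAAN and the cyclic AMP response element TGACGTCA. The first matched in 4 of the 10 windows, those of Trib3, Atf3, Chac1 and Nupr1, against 3.95% of 32851 windows of the same length. The second matched only in that of Ppp1r15a among the 10, against 1.79% of all windows. The 5 windows with a match are printed in the direction of transcription, with the match in capitals. The 4 C/EBP-ATF matches lie on the opposite strand, so their capitals are the reverse complement of the motif.
Trib3 promoter (chr2:152344011-152344310, minus strand): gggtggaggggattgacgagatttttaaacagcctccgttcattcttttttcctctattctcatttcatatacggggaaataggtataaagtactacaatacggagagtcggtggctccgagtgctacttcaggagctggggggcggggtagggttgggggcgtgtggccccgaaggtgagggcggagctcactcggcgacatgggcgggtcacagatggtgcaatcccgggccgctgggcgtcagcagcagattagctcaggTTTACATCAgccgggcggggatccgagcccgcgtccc
Chac1 promoter (chr2:119350992-119351291, plus strand): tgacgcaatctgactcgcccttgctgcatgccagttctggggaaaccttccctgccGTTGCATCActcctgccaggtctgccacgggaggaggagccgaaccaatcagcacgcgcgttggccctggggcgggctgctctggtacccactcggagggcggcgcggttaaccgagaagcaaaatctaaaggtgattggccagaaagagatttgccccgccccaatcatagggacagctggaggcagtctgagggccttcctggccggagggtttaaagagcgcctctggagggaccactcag
Nupr1 promoter (chr7:126625421-126625720, minus strand): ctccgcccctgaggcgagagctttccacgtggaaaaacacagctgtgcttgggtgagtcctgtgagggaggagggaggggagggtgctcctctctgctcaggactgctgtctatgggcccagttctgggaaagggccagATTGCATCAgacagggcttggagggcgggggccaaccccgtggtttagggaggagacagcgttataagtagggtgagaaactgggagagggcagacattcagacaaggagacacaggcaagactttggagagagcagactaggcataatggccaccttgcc
Atf3 promoter (chr1:191183284-191183583, minus strand): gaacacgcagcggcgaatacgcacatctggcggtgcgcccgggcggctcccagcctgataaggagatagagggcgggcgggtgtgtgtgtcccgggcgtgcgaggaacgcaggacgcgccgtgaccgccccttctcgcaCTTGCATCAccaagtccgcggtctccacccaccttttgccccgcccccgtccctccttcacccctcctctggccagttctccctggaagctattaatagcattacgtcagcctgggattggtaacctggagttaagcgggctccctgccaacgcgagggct
Ppp1r15a promoter (chr7:45526219-45526518, minus strand): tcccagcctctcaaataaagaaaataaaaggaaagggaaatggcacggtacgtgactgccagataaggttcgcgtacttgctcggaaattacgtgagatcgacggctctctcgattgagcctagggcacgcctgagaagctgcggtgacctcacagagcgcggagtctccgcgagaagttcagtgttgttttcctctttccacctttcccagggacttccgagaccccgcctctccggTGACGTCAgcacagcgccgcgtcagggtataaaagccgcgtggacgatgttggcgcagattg
The match covers bases 14 to 22 after the start in Trib3, bases -194 to -186 in Chac1, bases -111 to -103 in Nupr1 and in Atf3, and bases -12 to -5 in Ppp1r15a. No window held both motifs, so no match overlapped another.

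The leaders of the mRNAs differed in the upstream open reading frames they hold. In the GENCODE transcript used for each gene, Atf4 had 3 AUG-started frames ahead of its coding sequence, of 36, 3 and 59 codons, and the last of these ran into the coding sequence out of frame. Ddit3 had 2 nested frames of 34 and 31 codons, Ppp1r15a had 3 of 45, 34 and 26 codons, and Cebpg had 4, none longer than 23 codons. A lone upstream frame was present in Atf3 (25 codons), Nupr1 (24 codons) and Sesn2 (22 codons), and none in Trib3, Cebpb or Chac1. The Nupr1 frame begins 174 bases before its start codon, ahead of the RefSeq start used for its promoter window. It spans the C/EBP-ATF match printed there. By the RefSeq start the mRNA would not hold this frame, so counting Nupr1 here rests on the GENCODE transcript. ANN codons, the codons whose tRNAs carry t6A, made up from 15.7% of sense codons in Chac1 to 36% in Cebpg. The deposited values are counts per gene, so footprints on an upstream frame and on the main coding sequence cannot be separated. Ddit3 has an entry for its upstream frame, but how reads were divided between the overlapping entries is not given in the sources used here.

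**Figure D1:**
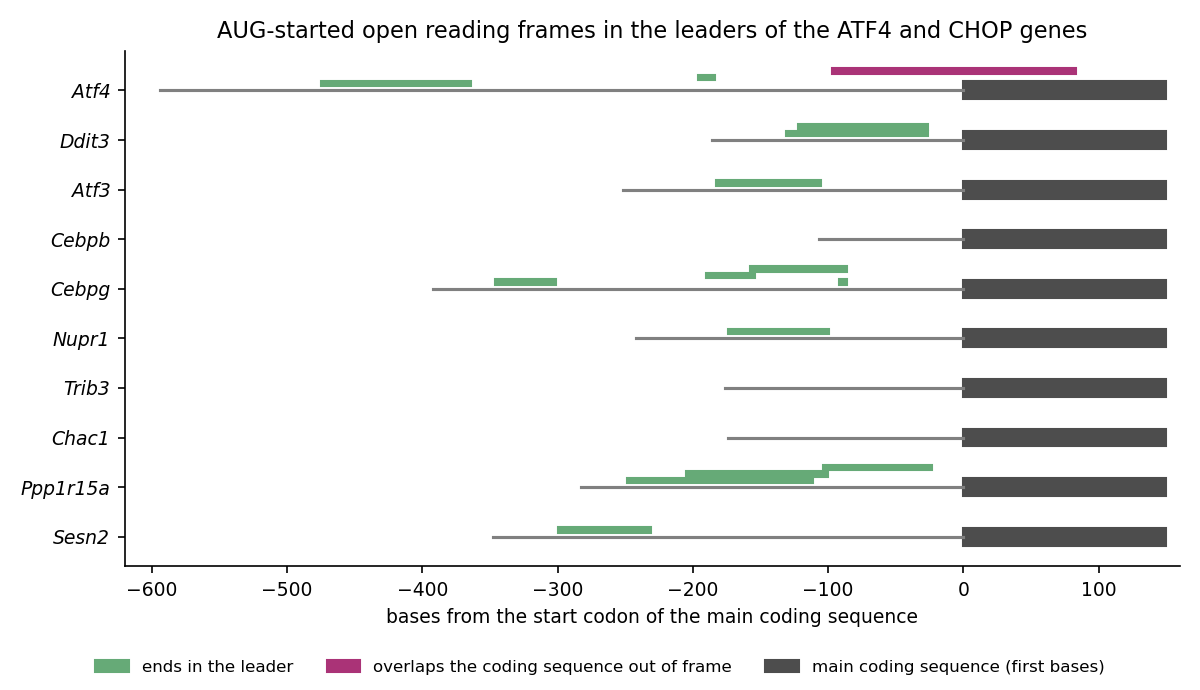
Leaders of the 10 genes drawn to scale, with the distance from the main start codon in bases on the horizontal axis, coloured bars for AUG-started upstream frames and a dark bar for the first bases of the coding sequence. Atf4, with the longest leader (594 bases), is the gene with a frame that overlaps its coding sequence, and Trib3, Cebpb and Chac1 have no upstream frame.

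Total RNA libraries held 46717840 to 81073416 counts and RPF libraries 12850642 to 40343700. In RPF, 67.7% of counts fell on ribosomal RNA in shOSGEP 1, against 27.7 to 44.8% in the other libraries. Protein-coding genes held 15.6% of RPF counts in shOSGEP 1, against 29.8 to 48.6% in the others. Osgep stood at 4.25%, 44.0% and 44.4% of its paired control in replicates 1 to 3 by total RNA and at 63.1%, 52.3% and 50.1% by RPF. The shOSGEP 1 libraries stood apart from the rest. A log2 difference beyond 1 was measured for 3153 genes in pair 1 of total RNA, against 646 and 643 in the other pairs. The 20 interferon-stimulated genes listed summed to 1311 CPM (counts relative to the TMM-scaled library size) in shOSGEP 1, against 143 to 218 in the other 5 total RNA libraries, and to 632 CPM against 61.1 to 98.8 in RPF. All 7 melanocytic markers were detected, summing to 9665 to 16840 CPM in shCtr and 2655 to 12790 CPM in shOSGEP total RNA. All 7 were lower in shOSGEP in the fit, with a median log2 difference of -0.62, though none at an unadjusted p under 0.05. Their pair medians were -2.16, -0.36 and 0.062, so the difference was mainly that of pair 1. The 5 fibroblast markers, 1 of them at 0 in all total RNA libraries, were low but higher in every shOSGEP library, at 4.97 to 16.6 CPM against 2.005 to 4.58 in shCtr total RNA and 3.99 to 6.94 against 2.003 to 3.09 CPM in RPF. Of the 2 fibroblast markers that could be tested, the collagen gene Col1a1 had a log2 difference of 3.07 (SE 1.105, unadjusted p = 0.0278) in total RNA and Col1a2 had 0.096 (SE 0.60). The 5 immune cell markers, 2 of them at 0, summed to 0.868 to 3.43 CPM in shOSGEP and 2.34 to 4.87 in shCtr total RNA, and the 3 keratinocyte markers, 2 of them at 0, to at most 0.0388 CPM. Whether the departure of replicate 1, the interferon-stimulated genes or the marker genes had a part in the values of the 10 genes was not tested, and the values are therefore given by library.

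All 10 genes measured higher in shOSGEP than in shCtr, in total RNA and in RPF, in 3 of 3 replicate pairs. The share of all tested genes higher in 3 of 3 pairs was 17.7% in total RNA and 15.7% in RPF. The median log2 difference over the 10 genes, shOSGEP minus shCtr, was 1.00 in total RNA (range 0.46 to 2.08), beside a median of 0.021 over all 14516 genes tested. In RPF it was 1.01 (range 0.23 to 2.22), beside 0.045 over 13529 genes. By replicate pair, the total RNA medians were 1.43, 0.48 and 0.74 and those of RPF were 0.87, 0.46 and 0.91. These are bulk libraries, in which a change in the number of cells that express a gene and a change in RNA per cell cannot be told apart.

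None of these differences passed an adjusted p of 0.05. The test was edgeR's quasi-likelihood test with Benjamini-Hochberg adjustment over all genes, which called 0% of genes in total RNA and 0% in RPF, and the adjusted p was 0.9745 for each of the 10 genes in total RNA and 0.9998 in RPF. DESeq2 called 8 genes in total RNA and 1 in RPF at that threshold, none of them among the 10. An RPF fit without the filter on low counts called 229 genes, Trib3 and Nupr1 among them. At an unadjusted p under 0.05, edgeR found 259 genes in total RNA and 139 in RPF. Among the 10, Atf4, Trib3, Chac1, Nupr1 and Sesn2 were higher at that level in total RNA (5 of 10, beside 1.52% of all genes), and Trib3, Nupr1 and Sesn2 in RPF (3 of 10, beside 0.754%). With the replicate number as a block, each shOSGEP sample was compared with the shCtr sample of the same number. The count was then 9 of 10 in total RNA, all but Cebpb, beside 2.51% of all genes. In RPF it was then 7 of 10, without Atf4, Atf3 and Cebpg, beside 2.54%. The smallest adjusted p among the 10 with the block was 0.721 in total RNA and 0.817 in RPF.

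The counts depended on single libraries. In total RNA, 2 of the 10 genes were higher at an unadjusted p under 0.05 without shOSGEP 1 (beside 1.33% of all genes). The count was 2 without shCtr 2 (0.397%), 3 without shCtr 3 (1.05%) and 10 without shOSGEP 2 (5.26%). It was 7 without replicate pair 1 (0.905%) and 1 without replicate pair 3 (0.67%). In RPF the count was 1 without shCtr 2 (beside 0.377% of all genes), 1 without shOSGEP 3 (1.28%), 7 without shOSGEP 2 (2.55%), 1 without pair 1 (0.628%) and 0 without pair 3 (0.265%). The share of all genes at that level moved between these fits as well. The median over the 10 genes was 0.37 in total RNA and 0.52 in RPF without shOSGEP 1. Leaving out both genotypes of replicate 1 gave medians of 0.55 for total RNA and 0.75 for RPF, and all 10 genes were still higher in both assays in that fit.

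**Figure D2:**
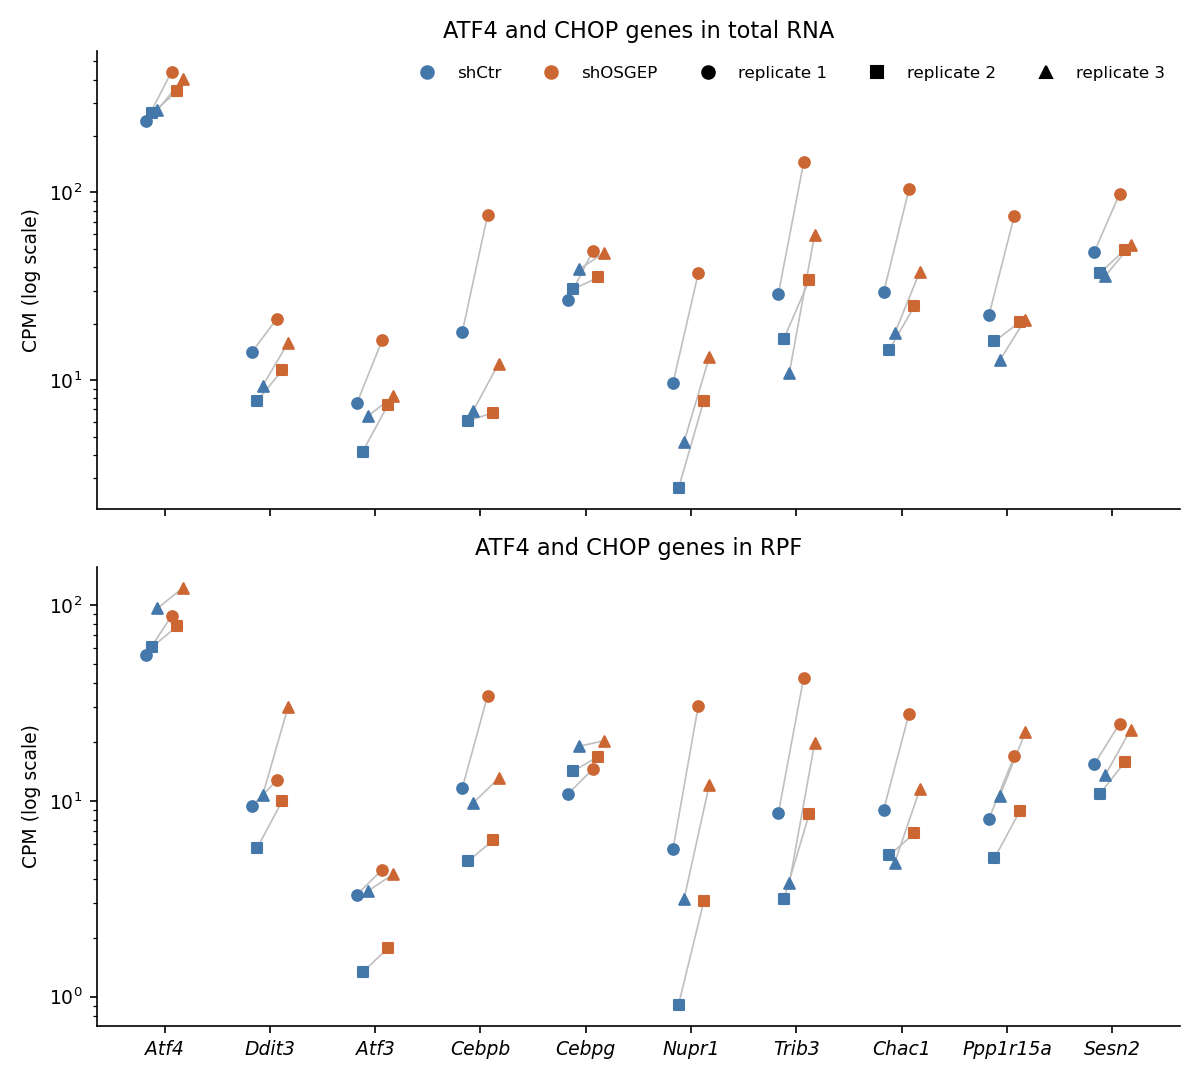
Each point is a library: CPM on a log axis against gene, with blue for shCtr, orange for shOSGEP, the marker shape giving the replicate and a grey line joining each replicate pair. Every line has its upper end at shOSGEP in both assays, while the orange points overlap the blue in 7 of the 10 genes in total RNA and in 9 of the 10 in RPF.

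The 2 transcription factors that give the branch its name differed by less than several of their partners in total RNA. Atf4 (ENSMUSG00000042406, chr15:80255184-80257541, plus strand), the bZIP activator at the head of the branch, was 242, 264 and 274 CPM in shCtr 1 to 3 and 441, 347 and 402 CPM in shOSGEP 1 to 3 in total RNA. The groups did not overlap, and each shOSGEP library exceeded every control. The means were 260.0 ± 16.6 CPM and 396 ± 47.4 CPM (SD, n = 3 each), 1.52-fold higher in shOSGEP, a log2 difference of 0.61 (SE 0.15, unadjusted p = 0.00479). Groups that did not overlap, with shOSGEP higher, were found for Atf4, Trib3 and Sesn2 in total RNA (3 of 10, beside 4% of all genes) and for Sesn2 in RPF (1 of 10, beside 2.43%). Atf4 footprints were 55.8, 60.8 and 95.98 CPM in shCtr and 88.1, 77.8 and 122 CPM in shOSGEP. Here shCtr 3 lay above 2 of the 3 shOSGEP libraries, and the log2 difference was 0.44 (SE 0.33, unadjusted p = 0.231), with pair values of 0.66, 0.35 and 0.34.

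Ddit3 (ENSMUSG00000025408, chr10:127290774-127296288, plus strand) encodes CHOP, the bZIP factor associated with prolonged stress. Its total RNA was 14.1, 7.76 and 9.32 CPM in shCtr and 21.3, 11.3 and 15.8 CPM in shOSGEP, so the groups overlapped. The log2 difference was 0.63 (SE 0.32, unadjusted p = 0.0908), and the pairs were alike at 0.60, 0.54 and 0.76. With the replicate block the unadjusted p was 0.00793. Ddit3 footprints were 9.41, 5.76 and 10.7 CPM in shCtr and 12.7, 10.03 and 30.01 CPM in shOSGEP. In RPF it was shOSGEP 3 rather than shOSGEP 1 that was highest, and the log2 difference was 1.03 (SE 0.48, unadjusted p = 0.0672). Without shOSGEP 3 it was 0.39 (unadjusted p = 0.323). The exons of Ddit3 also overlap those of Gm4189 and Mars, and how the authors' counting divided reads between overlapping genes was not given in the sources used here.

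The upstream open reading frame of Ddit3 has an identifier of its own, ENSMUSG00000116429, on chromosome 10 from 127290829 to 127293753 (GRCm38), with 102 coding bases inside the first exons of Ddit3. It held 0 counts in all 6 total RNA libraries but 17, 5 and 27 RPF counts in shCtr 1 to 3 and 34, 30 and 44 in shOSGEP 1 to 3. Ddit3 itself held 431 to 1374 counts in total RNA. Since total RNA held no count on the upstream entry, no ratio of RPF to total RNA was formed for it. Whether both tables were counted over the same features and with the same strand setting is not given in the sources used here, which limits the ratios of RPF to total RNA of the other genes as well. Its RPF log2 difference was 1.41 (SE 0.70, unadjusted p = 0.0837), with pair values of 1.48, 1.42 and 0.98. Of the RPF counts on both Ddit3 entries together, the upstream entry took 9.24% in shCtr 1 (95% Wilson interval 5.85 to 14.3%). It took 5% in shCtr 2 (2.15 to 11.2%) and 4.82% in shCtr 3 (3.33 to 6.92%). In shOSGEP it took 18.1% in replicate 1 (13.2 to 24.2%), 8.48% in replicate 2 (6.001 to 11.8%) and 3.66% in replicate 3 (2.74 to 4.88%). The share was higher in shOSGEP in pairs 1 and 2 and lower in pair 3. The means, 6.35% ± 2.50 and 10.1% ± 7.35 (SD, n = 3 each), lay closer together than the spread within shOSGEP (exact permutation test over the 6 libraries, two-sided, p = 0.7, with 0.1 the smallest p that 3 against 3 allows). These intervals cover counting error only. Reads on the upstream frame may also have been counted under Ddit3, so the shares are those of the entries and not of the regions.

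**Figure D3:**
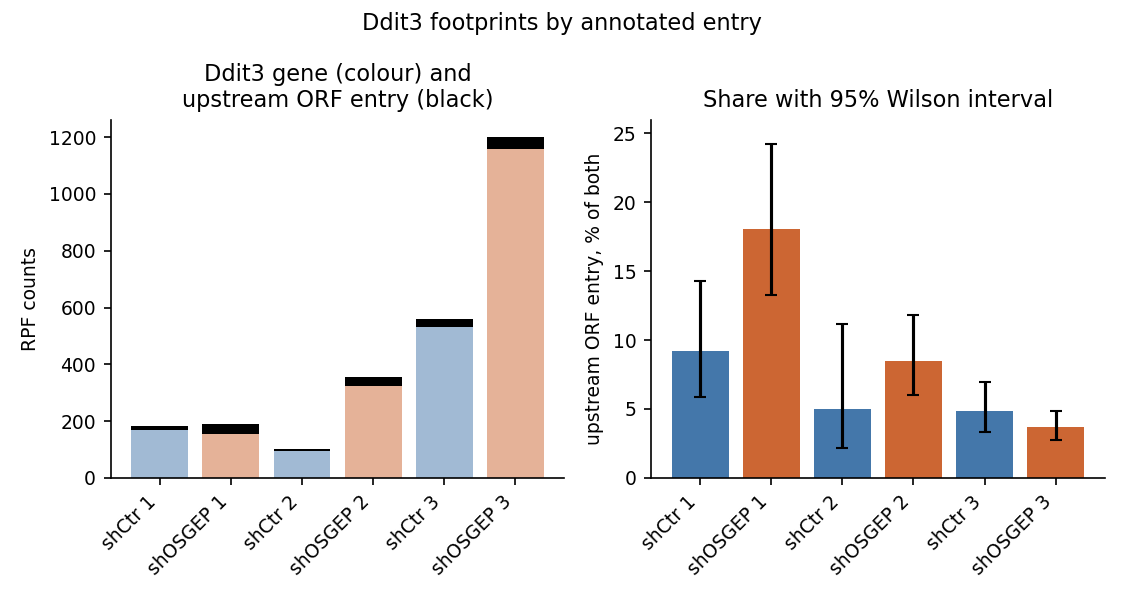
Left, RPF counts per library for the Ddit3 gene (colour) with its upstream open reading frame entry stacked in black. Right, the percentage of both entries' counts held by the upstream entry, with 95% Wilson intervals. It runs from 3.66% in shOSGEP 3 to 18.1% in shOSGEP 1.

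The bZIP partners followed. Atf3 (ENSMUSG00000026628, chr1:191170296-191218039, minus strand), a stress-induced factor that often represses its targets, was low throughout: 7.59, 4.14 and 6.43 CPM in shCtr and 16.4, 7.35 and 8.19 CPM in shOSGEP total RNA. Only the lowest shOSGEP library fell within the control range, and the log2 difference was 0.81 (SE 0.39, unadjusted p = 0.0773). In RPF, Atf3 was 3.32, 1.33 and 3.47 CPM in shCtr and 4.46, 1.76 and 4.22 CPM in shOSGEP, on as few as 22 counts in a library, and the log2 difference of 0.35 (SE 0.55, unadjusted p = 0.539) was smaller than its error. It was -0.092 with limma voom and sample quality weights.

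Cebpb (ENSMUSG00000056501, chr2:167688915-167690418, plus strand), a C/EBP factor that can bind DNA with ATF4, depended most on replicate 1. Total RNA was 18.2, 6.05 and 6.88 CPM in shCtr and 75.97, 6.705 and 12.2 CPM in shOSGEP, so that shOSGEP 1 held several times the level of any other library. The log2 difference was 1.61 (SE 0.93, unadjusted p = 0.129), with pair values of 2.06, 0.15 and 0.83. Without shOSGEP 1 the sign turned, to -0.14. Footprints showed the same library apart, with 11.7, 4.91 and 9.77 CPM in shCtr and 34.4, 6.28 and 13.01 CPM in shOSGEP, a log2 difference of 1.02 (SE 0.64, unadjusted p = 0.154), which was 0.12 without shOSGEP 1. Without shCtr 1 the total RNA difference was 2.29. Part of Cebpb overlaps Tmem189 exons and is 99.4% identical to a Tmem189 transcript over 320 bases, so its counts are uncertain.

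Cebpg (ENSMUSG00000056216, chr7:35046422-35056573, minus strand), the smallest C/EBP factor and another ATF4 partner, showed the smallest difference of the 10 in both assays. Its total RNA was 26.6, 30.5 and 38.9 CPM in shCtr and 48.9, 35.3 and 47.6 CPM in shOSGEP, and its RPF was 10.8, 14.2 and 18.97 and 14.5, 16.8 and 20.2 CPM. The groups overlapped in each assay. The log2 differences were 0.46 (SE 0.21, unadjusted p = 0.0627) in total RNA and 0.23 (SE 0.29, unadjusted p = 0.452) in RPF. Its exons overlap the gene models Gm44836 and Gm45095.

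Nupr1 (ENSMUSG00000030717, chr7:126623249-126630861, minus strand), a small chromatin-associated stress protein, had the largest RPF difference of the 10. Total RNA was 9.66, 2.65 and 4.67 CPM in shCtr and 37.1, 7.76 and 13.2 CPM in shOSGEP, and shOSGEP 2 lay below shCtr 1. The pair values were nonetheless close to each other, at 1.94, 1.54 and 1.497. The fitted log2 difference was 1.77 (SE 0.69, unadjusted p = 0.0381), a 3.42-fold difference, and the unadjusted p was 0.000265 with the replicate block. Footprints were 5.69, 0.909 and 3.14 CPM in shCtr and 30.6, 3.06 and 12.1 CPM in shOSGEP. The log2 difference in RPF was 2.22 (SE 0.92, unadjusted p = 0.0466), with 0.000221 as the unadjusted p under the block, on as few as 15 counts in shCtr 2. Without shOSGEP 1 the difference was 0.88 in total RNA (unadjusted p = 0.1195) and 1.201 in RPF (unadjusted p = 0.1895), and without shCtr 1 it was 2.41 and 2.86.

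Trib3 (ENSMUSG00000032715, chr2:152337422-152344032, minus strand), the pseudokinase that feeds back on ATF4 and CHOP, had the largest total RNA difference of the 10. It stood at 28.7, 16.6 and 10.9 CPM in shCtr and 145, 34.03 and 59.5 CPM in shOSGEP, and every shOSGEP library was above every control. The means were 18.7 ± 9.105 CPM and 79.3 ± 57.9 CPM (SD, n = 3 each), 4.23-fold higher in shOSGEP, with a log2 difference of 2.08 (SE 0.59, unadjusted p = 0.0101). By pair it was 2.33, 1.04 and 2.44, and pair 3 was as far apart as pair 1. Trib3 footprints were 8.62, 3.15 and 3.79 CPM in shCtr and 42.4, 8.51 and 19.6 CPM in shOSGEP. They overlapped by a narrow margin, shOSGEP 2 lying just under shCtr 1, and the log2 difference was 2.18 (SE 0.66, unadjusted p = 0.0131). Leaving out any library or pair kept the difference between 1.31 and 2.53 in total RNA and between 1.43 and 2.74 in RPF, lowest without shOSGEP 1 in each assay.

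Ppp1r15a (ENSMUSG00000040435, chr7:45522916-45526268, minus strand) encodes GADD34, the eIF2 phosphatase subunit. Its total RNA was 22.2, 16.1 and 12.8 CPM in shCtr and 74.9, 20.4 and 21.02 CPM in shOSGEP, where shOSGEP 1 again stood far above the rest and the other two lay below shCtr 1. The log2 difference of 1.19 (SE 0.54, unadjusted p = 0.0663) became 0.27 without shOSGEP 1. In RPF the pairs were more alike, at 1.05, 0.79 and 1.06, from 8.11, 5.09 and 10.6 CPM in shCtr and 16.9, 8.85 and 22.3 CPM in shOSGEP. The fit gave 1.01 (SE 0.43, unadjusted p = 0.0507), and 0.00266 as the unadjusted p with the block. Exons of Ppp1r15a overlap those of Tulp2.

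Sesn2 (ENSMUSG00000028893, chr4:132492032-132510501, minus strand), a leucine sensor that restrains mTORC1, was the gene with groups apart in both assays. Total RNA was 48.2, 37.1 and 35.9 CPM in shCtr and 98.4, 49.6 and 52.3 CPM in shOSGEP. Footprints were 15.4, 10.9 and 13.5 CPM in shCtr and 24.8, 15.8 and 23.04 CPM in shOSGEP. The gaps were narrow, since shOSGEP 2 was just above shCtr 1 in each assay. The log2 differences were 0.72 (SE 0.30, unadjusted p = 0.0457) in total RNA and 0.68 (SE 0.28, unadjusted p = 0.0442) in RPF. Without shOSGEP 1 they were 0.32 (unadjusted p = 0.0762) and 0.54 (unadjusted p = 0.0936).

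Chac1 (ENSMUSG00000027313, chr2:119351229-119354381, plus strand), a glutathione-degrading enzyme and a classical ATF4 target, was 29.4, 14.5 and 17.7 CPM in shCtr and 104, 24.8 and 37.8 CPM in shOSGEP total RNA. The level in shOSGEP 2 was under that of shCtr 1, so the groups overlapped, and the log2 difference was 1.43 (SE 0.56, unadjusted p = 0.0369). In RPF it was 9.01, 5.27 and 4.83 CPM in shCtr and 27.7, 6.81 and 11.5 CPM in shOSGEP, a log2 difference of 1.26 (SE 0.55, unadjusted p = 0.0563). Pair 2 was the smallest in both assays, at 0.78 in total RNA and 0.36 in RPF. Without shOSGEP 1 the difference was 0.60 in total RNA (unadjusted p = 0.0946) and 0.51 in RPF (unadjusted p = 0.234).

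**Figure D4:**
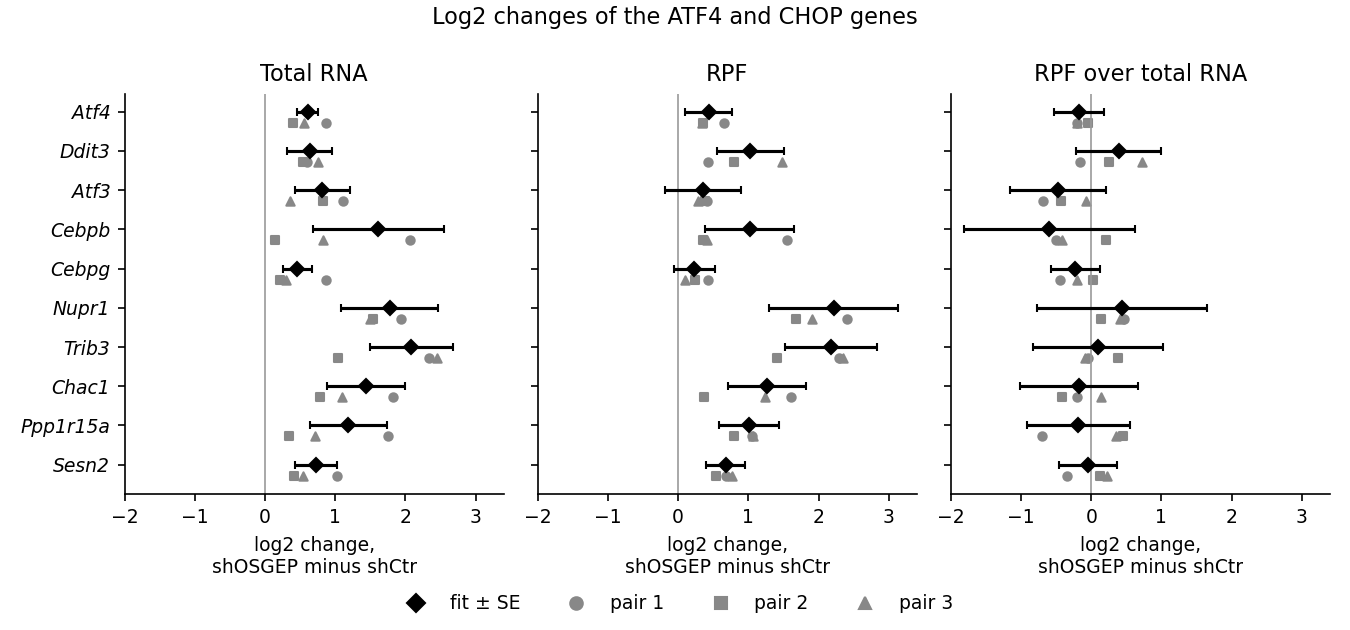
Log2 difference, shOSGEP minus shCtr, on the horizontal axis for each gene in total RNA, in RPF and in RPF over total RNA, with black diamonds for the fitted value, bars for its SE and grey markers for the replicate pairs. All 10 diamonds lie to the right of 0 in the first 2 panels (0.46 to 2.08 and 0.23 to 2.22), and in the third they lie on both sides (-0.59 to 0.44) with bars that span 0.

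Because several of these mRNAs have upstream frames, the question of RPF over total RNA, here called translational efficiency, was put to the 12 libraries in a model with an assay by genotype term. The difference in translational efficiency was within its error for each of the 10 genes. The median over the 10 was -0.17 (range -0.59 to 0.44), beside 0.0058 over 12560 genes, and 7 of the 10 values were below 0. The test called 0% of genes at an adjusted p of 0.05, and the adjusted p was 1 for each of the 10, while DESeq2 also called 0. At an unadjusted p under 0.05, edgeR found 17 genes in either direction, and none of the 10 was among them: 0 of 10 were higher at that level, beside 0.0717% of all genes, and 0 of 10 with the replicate block, beside 0.191%. Only Nupr1 was higher in 3 of 3 pairs (1 of 10, beside 11.6%), and in none of the 10 did the groups stand apart with shOSGEP higher (beside 2.03%).

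Atf4, the gene with the overlapping upstream frame, had log2 ratios of RPF to total RNA of -2.11, -2.11 and -1.51 in shCtr and -2.32, -2.15 and -1.72 in shOSGEP. Replicate 3 was the highest in each genotype, and the fitted difference was -0.17 (SE 0.36, unadjusted p = 0.637). Pair values of -0.21, -0.04 and -0.21 were all below 0. For Ddit3 the ratios were -0.57, -0.42 and 0.20 in shCtr and -0.74, -0.17 and 0.93 in shOSGEP, and the difference was 0.39 (SE 0.61, unadjusted p = 0.528). The pairs disagreed, at -0.16, 0.25 and 0.73. Nupr1 ratios were -0.75, -1.45 and -0.55 in shCtr and -0.28, -1.31 and -0.13 in shOSGEP, with a difference of 0.44 (SE 1.21, unadjusted p = 0.722). Its pair values were small beside that error.

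Among the other genes with upstream frames, the fitted differences were -0.47 (SE 0.68, unadjusted p = 0.505) for Atf3, -0.23 for Cebpg, -0.18 for Ppp1r15a and -0.047 for Sesn2. For the 3 genes without an upstream frame they were 0.096 for Trib3, -0.17 for Chac1 and -0.59 for Cebpb. The ranges of genes with and without upstream frames overlapped, with Nupr1 placed by its GENCODE transcript. The genes at the ends of the ANN codon range were at -0.23 (SE 0.35) for Cebpg and -0.17 (SE 0.83) for Chac1. Whether upstream frames or ANN codons had a part in these values was not tested. For Ppp1r15a and Sesn2 the fit and the mean of the pair values differ in sign: the pairs were -0.70, 0.45 and 0.35 for Ppp1r15a and -0.34, 0.12 and 0.23 for Sesn2. Without shOSGEP 1 the differences were 0.68 and 0.21, without both replicate 1 samples 0.45 and 0.19, and without shCtr 3 0.28 and 0.063, so no direction can be given for these 2 genes. The sign of the translational efficiency difference turned under at least 1 alternative for 7 of the 10 genes, all but Atf3, Cebpg and Chac1.

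Ratios of RPF to total RNA depend on how each table was counted, so the places that follow are descriptions. In control cells the 10 genes took different places among all genes by their ratio of RPF to total RNA. Cebpb stood at the 87.5, 89.5 and 95.5 percentiles of genes in shCtr 1 to 3, and Ddit3 at the 88.6, 87.9 and 94.0 percentiles. Trib3 was in the lower part, at the 21.9, 4.99 and 38.8 percentiles, as was Atf4 at the 7.77, 9.56 and 38.1 percentiles. Per kilobase of annotated exon length, Atf4 was the most abundant of the 10 in shCtr total RNA, at 110.3 ± 7.05 CPM per kb (SD, n = 3), and did not overlap with Chac1, the next, at 12.5 ± 4.79. From Chac1 down to Cebpg, at 5.69 ± 1.11, neighbours in the order of levels (Sesn2, Trib3, Cebpb, Ddit3 and Ppp1r15a lay between) overlapped over the control replicates. Atf3 at 2.81 ± 0.814 and Nupr1 at 2.25 ± 1.44 CPM per kb were lowest. In shCtr RPF, scaled instead per kilobase of coding sequence, Atf4 at 67.7 ± 20.9, Cebpg at 32.6 ± 9.10 and Ddit3 at 17.1 ± 5.06 CPM per kb led, and Ppp1r15a was lowest at 4.03 ± 1.41. The orders of the 2 assays rest on different lengths and are not compared.

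Over the 6 total RNA libraries, the log2 CPM profile of Chac1 followed the mean of the other 9 most closely (Pearson's r = 0.999) and that of Cebpg least (r = 0.609). In RPF, Sesn2 was closest (r = 0.981) and Cebpg least close (r = 0.188). These are descriptions over 6 libraries that share genotype and replicate. By the same measure, the genes outside the 10 with the profile most like their mean in total RNA, among 10208 candidates, were Cyb5r2 (r = 0.998), Abca8b (0.998), Psph (0.997), Aars (0.995) and Gpc4 (0.993). Psph encodes the last enzyme of serine synthesis and Aars the cytosolic alanyl-tRNA synthetase. In RPF, which did not choose them, the same genes had r from 0.536 for Aars to 0.892 for Cyb5r2.

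The other genes of the pathway are given from lists by function. Of 35 target genes of ATF4 and CHOP outside the 10, 32 were tested in total RNA, with a median log2 difference of 0.44 and pair medians of 0.61, 0.26 and 0.41. None passed the adjusted threshold. At an unadjusted p under 0.05, 14 were higher (beside 1.52% of all genes) and 0 lower. With the replicate block 19 were higher (beside 2.51%) and 0 lower, while 23 were higher in 3 of 3 pairs (beside 17.7%). The 4 with the smallest p were Herpud1, an endoplasmic reticulum degradation factor (log2 difference 0.75, SE 0.16), Gdf15, a secreted stress cytokine (1.02, SE 0.31), Mthfd2, a mitochondrial folate enzyme (0.52, SE 0.17), and Nars, the asparaginyl-tRNA synthetase (0.51, SE 0.16). In RPF the median of this list was 0.45. At an unadjusted p under 0.05, 1 gene was higher (beside 0.754% of all genes), or 9 with the block (beside 2.54%). Its translational efficiency had a median of 0.018 and no gene at that level.

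Upstream of ATF4, the 20 genes for eIF2 kinases, eIF2 and its phosphatase partners had a median of -0.037 in total RNA and 0.035 in RPF. None was higher or lower at an unadjusted p under 0.05 in either assay, and with the block 1 was higher in RPF (beside 2.54% of all genes). The smallest p values in total RNA were those of Eif2s2, the beta subunit of eIF2 (log2 difference 0.21, SE 0.12), Ppp1cb, a catalytic phosphatase subunit (0.38, SE 0.21), Impact, an inhibitor of the kinase GCN2 (0.33, SE 0.19), and Oma1, the mitochondrial protease that relays stress to the kinase HRI (0.39, SE 0.22). Phosphorylation of eIF2 was not measured in these libraries. The other bZIP genes, 31 of 35 tested, had a total RNA median of 0.18, with pair medians of 0.27, -0.0028 and 0.028. Of these, 3 were higher at an unadjusted p under 0.05 (beside 1.52% of all genes): Atf5 (1.37, SE 0.47), Cebpd (4.25, SE 1.74) and Jdp2 (0.60, SE 0.25). Nfil3, the next by p, was at 1.26 (SE 0.56). With the replicate block in edgeR, the unadjusted p was 0.00512 for Atf5, 0.151 for Cebpd and 0.0148 for Jdp2. Atf5 is, like Atf4, a bZIP gene known for translational control by upstream frames, and its translational efficiency difference was -0.29 (SE 0.79).

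The chaperones and degradation genes of the ATF6 and IRE1 arms, the other arms of the unfolded protein response, did not go with the 10. Of 19 tested in total RNA, 1 was higher and 18 were lower, with a median of -0.21 and pair medians of -0.61, -0.28 and 0.15, and 0 passed an unadjusted p of 0.05 in either direction. The smallest p values were those of the chaperone cofactor Sdf2l1 (-0.53, SE 0.28), Sel1l of the degradation machinery, the list's positive value (0.28, SE 0.20), the disulfide isomerase Pdia6 (-0.34, SE 0.24) and the secreted factor Manf (-0.33, SE 0.25). In RPF the median was -0.20, and 0 passed, with 1 lower under the block. Herpud1, also a degradation factor of the endoplasmic reticulum, was placed in the ATF4 and CHOP list. It was higher in total RNA (0.75, SE 0.16), so the contrast between the lists depends in part on that placement. The interferon-stimulated genes had a median of 2.53 in total RNA, but pair medians of 3.30, 0.46 and 0.16. Of 18 tested, 4 were higher at an unadjusted p under 0.05 in total RNA (beside 1.52% of all genes), or 1 with the block (beside 2.51%). The 4 were Ifit1 (3.06, SE 1.15), Isg15 (3.82, SE 1.52), Usp18 (5.30, SE 2.13) and Dhx58 (3.79, SE 1.57). In RPF their pair medians were 3.22, -0.0030 and 0.22. Their difference was thus mainly that of pair 1, though in pair 2 of total RNA their median was near the 0.48 of the 10 ATF4 and CHOP genes. The 10 genes had pair medians of at least 0.46 in all 3 pairs and both assays. In total RNA their largest pair median was also that of pair 1, at 1.43.

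**Figure D5:**
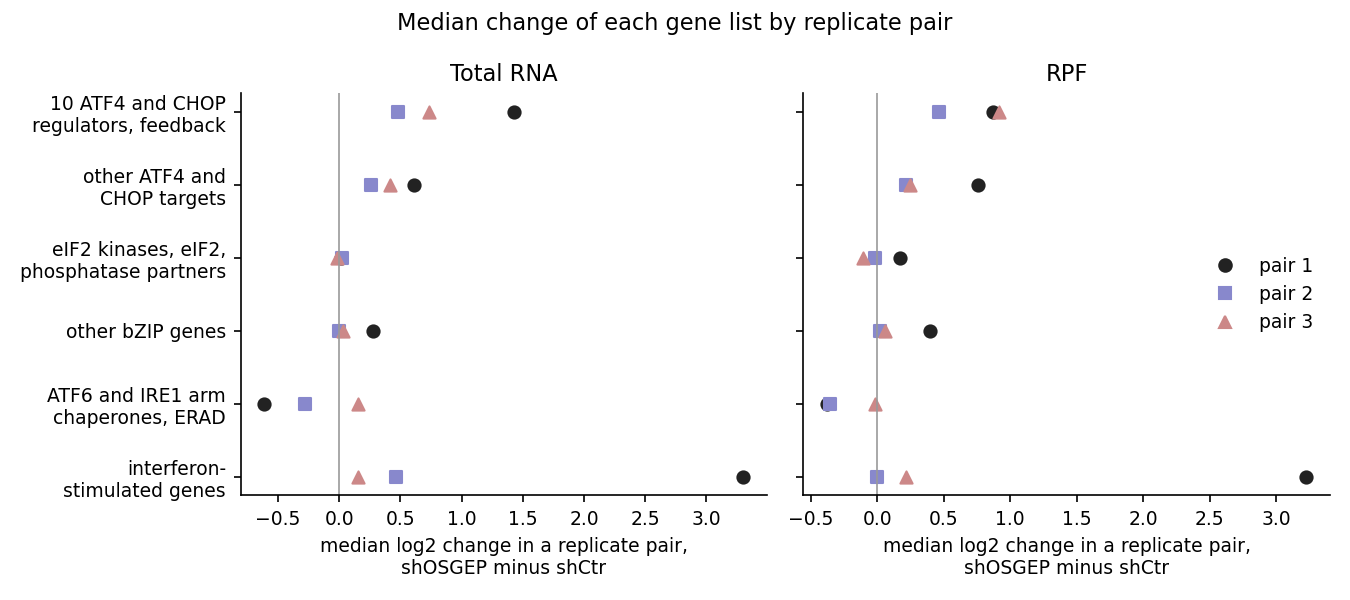
Median log2 difference, shOSGEP minus shCtr, on the horizontal axis for each gene list on the vertical axis, with a marker for each replicate pair, in total RNA (left) and RPF (right). The 10 genes lie at 0.46 or above in each pair, and the eIF2 list lies near 0. The interferon-stimulated genes reach 3.30 in pair 1 and are lower in pairs 2 and 3. In pair 2 of total RNA they are at 0.46, beside 0.48 for the 10 genes.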

How the data were processed

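Total RNA and RPF libraries of B16F10 cells (3 shCtr and 3 shOSGEP replicates each) were compared as gene counts. The deposited values are raw counts per Ensembl gene, made by the authors. Per the labels, reads were checked with FastQC 0.11.9 and trimmed with Trim Galore 0.6.6 and cutadapt before STAR. The labels list both GRCm38 and GRCm39. The study's methods name STAR on GRCm38 and Salmon for RNA sequencing, and describe the alignment of footprints separately. For the deposited tables, the counting tool, its strand setting and the annotation are not given in the sources used here. Of the 55487 identifiers, 55227 were found in GENCODE M21 (GRCm38), from which transcripts, upstream frames and overlaps were taken. A frame had to start with AUG and was read in 1 transcript per gene.

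Counts were filtered with filterByExpr, scaled by TMM and tested with edgeR 4.0.16 (quasi-likelihood), with Benjamini-Hochberg adjustment over all genes. This followed the study's stated use of edgeR with shCtr as the reference. Translational efficiency was the interaction of assay and genotype with TMM within assay. Library levels are CPM of the TMM-scaled library, and pair values are differences of log2 CPM with a prior count of 2. DESeq2 1.42.0 and limma 3.58.1 were alternatives, as were other filters and scalings and the loss of each replicate. The procedure was tested on simulated data. Totals of 12850642 to 40343700 counts in RPF and 46717840 to 81073416 in total RNA set the counting precision, which was lower in RPF, where 15.6 to 48.6% of counts fell on protein-coding genes.

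Replicate numbers came from the sample titles. They were taken to pair the samples. Deviations of same-numbered shCtr and shOSGEP libraries from their group means correlated at 0.586, 0.508 and 0.665 for the RPF libraries. For those of total RNA the correlations were 0.515, 0.542 and 0.287. Libraries with different numbers were not compared, so these values cannot show whether another pairing would do as well. No pair of libraries of the same genotype and assay agreed within sampling noise.

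The 10 genes and the gene lists were chosen with earlier results of these data known. The named genes are all 10, the 4 of each list with the smallest unadjusted p in total RNA, and the 5 with the most alike profile among genes of at least 5 CPM. Marker lists are given as sums, apart from the fitted and pair medians of the melanocytic list and the fibroblast genes Col1a1 and Col1a2.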

Additional observations from a re-analysis of the deposited data

How the results depend on the processing

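The 10 genes were all higher in total RNA and RPF under every alternative except that Cebpb in total RNA was -0.14 without shOSGEP 1 and Atf3 in RPF was -0.092 with limma voom and sample quality weights. No alternative called any of the 10 at an adjusted p of 0.05 except the RPF fit without a filter on low counts, which called 229 genes, among them Trib3 (2.08, adjusted p = 0.000156 by edgeR) and Nupr1 (2.10, adjusted p = 0.000765), and the cause was not tested. In total RNA, genes called numbered 8 with DESeq2, 2 with limma voom and 1 with the replicate block, and in RPF 1 with DESeq2. At the study's thresholds (unadjusted p under 0.05 and a log2 change above 0.5) edgeR gave 223 genes in total RNA, 139 in RPF and 17 in translational efficiency. Of the 10, the number higher at an unadjusted p under 0.05 was 9 in total RNA and 7 in RPF with the replicate block. In RPF it was 5 with DESeq2 (beside 1.34% of all genes), 5 with at least 10 counts in every library (0.868%), 5 with protein-coding genes only (0.892%), 6 without a filter (2.64%) and 1 with limma voom (0.687%), whose median was 0.50. The block, including that by cell sample in translational efficiency, changed no other call. Leaving out a library or a pair gave 1 to 10 of the 10 in total RNA, 0 to 7 in RPF and 0 in translational efficiency, with medians of 0.37 to 1.25, 0.52 to 1.29 and -0.27 to 0.17, and 0 genes called.

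Translational efficiency turned in sign most often. With limma voom it was -0.42 for Trib3, 0.19 for Ppp1r15a, -0.41 for Nupr1 and 0.024 for Sesn2. With the replicate block by cell sample it was 0.029 for Ppp1r15a and 0.0038 for Sesn2. Without shOSGEP 1 it was 0.26 for Cebpb, 0.68 for Ppp1r15a and 0.21 for Sesn2. Leaving out a library or pair gave -0.089 to 0.24 for Trib3, -0.36 to 0.087 for Atf4, -0.24 to 0.82 for Ddit3, -1.03 to 0.26 for Cebpb (-0.14 to 2.29 in total RNA), -0.78 to 0.68 for Ppp1r15a and -0.25 to 0.21 for Sesn2. Without a library, a group of 2 was assumed to vary like the other. RPF counts as low as 15 per gene, and 3 replicates, limit what these libraries can resolve.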
